A study of Mus musculus with 8 samples.

Results

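Glutathione transferases and the enzymes that remove peroxide and superoxide were followed in mouse epididymal fat, a visceral white adipose depot beside the testis, with and without Ccdc92. The set was chosen by gene name alone. It took every protein-coding row of the deposited table whose GENCODE M21 symbol was a cytosolic or kappa glutathione transferase (Gst), a microsomal glutathione transferase (Mgst), a glutathione peroxidase (Gpx), a peroxiredoxin (Prdx) or a superoxide dismutase (Sod). This gave 42 genes of 24821 in the table: 22 Gst, 3 Mgst, 7 Gpx, 7 Prdx and 3 Sod genes. Of the 43 annotated genes that fit these names, Gpx6 was not analysed here. Both groups, 4 wild type (WT) and 4 Ccdc92 knockout (KO) libraries, came from male mice on a C57BL/6 background. All were on a diet with 60% of calories from fat for 14 weeks, and the WT animals were littermates of the same age. Ages at sampling, the deleted part of Ccdc92 and the number of animals per library are not stated in the labels. The p-values therefore describe the spread between 8 libraries, and that spread may be technical.

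These enzymes share the work of keeping reactive oxygen and reactive lipids in check. Sod enzymes turn superoxide into hydrogen peroxide. Gpx enzymes then reduce peroxides at the expense of glutathione, and peroxiredoxins do so at the expense of thioredoxin. Glutathione transferases attach glutathione to electrophiles, among them the aldehydes that arise when fatty acids are oxidised, which matters in a tissue made largely of stored lipid. Many genes of these families carry antioxidant response elements, the DNA sequence bound by the transcription factor NRF2 (gene Nfe2l2), which the adaptor KEAP1 holds in check.

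Values are normalized counts, the reads of a gene divided by the authors' factor for each library. Whole reads per library ran from 23681088 to 33817478. Ccdc92 itself had normalized counts of 54.1, 68.3, 106 and 99.2 in WT replicates 1 to 4 and 9.2, 5.1, 9.7 and 4.9 in KO replicates 1 to 4 (log2 fold change -3.34, limma adjusted p = 0.000383). Its KO counts were all under 10, the minimum for the test. Ccdc92 thus entered the test only through the WT libraries and had to be lower. The labelled tissue held its defining transcripts in every library, with 16 adipocyte markers summing to 432438.4 to 783005.7 across WT and 1613101.4 to 2090593.2 in KO, and 15 of them passed as higher in KO. The 16 macrophage markers summed to 207674.2 to 497318.6 across WT and 53525.9 to 84106 in KO, and 15 passed as lower. Transcripts of the epididymis and vas deferens, the ducts beside this depot, were summed over 21 listed genes. Sums ran from 63684.9 to 134286.1 across WT and from 12.1 to 1892.9 in KO. All 4 WT libraries thus carried these transcripts and KO libraries carried few. Of the 14 tested, 10 passed as lower. Genes near 0 in KO could enter the test only through WT libraries, so the filter favoured that direction. KO replicate 3 stood apart for red cell transcripts (8 genes, 6582891 against 104510.8 to 143088.7 in the other KO libraries), and WT replicate 4 was the highest of the WT libraries at 470082.6. In bulk tissue, fewer cells of a type and less RNA per cell cannot be told apart.

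In KO fat, 14 of the 36 members tested were higher, 3 were lower and 19 did not pass. The test was limma on log2(normalized count + 1), fitted over 17798 genes with a count of at least 10 in at least 4 libraries, with 0.05 as the limit for the p adjusted by Benjamini and Hochberg over those genes. Over all genes tested, 41.7% passed, 20.2% as higher and 21.5% as lower. The members passed at 47.2%, near that background, with 38.9% higher and 8.33% lower. The median log2 fold change, KO over WT, was 0.41 for the tested members and -0.01 for all genes tested. A further 6 members, all with low counts, did not enter the test. Quantile normalization, which moved the median of all genes by 0.105, gave 20 members higher and 2 lower, against a split of 4593 higher and 3257 lower over all genes (3592 and 3831 without it). At an unadjusted p under 0.05 there were 23 members, against 50.7% of all genes. The groups did not overlap for 13 members, 11 of them higher in KO, where the shares over all genes were 42.1% in either direction, 21.0% higher and 21.1% lower. At least a 2-fold change was called upwards for 6 members (16.7%, against 6.43% of all genes) and downwards for 2 (5.56%, against 10.8%). These 2, and the 3 lower members, include Gsta2. It entered the test only through its WT counts, so the filter fixed its direction and favoured its call. Without WT replicate 4 and KO replicate 3 together, 9 members were higher and 4 lower. Without KO replicate 3 alone 10 were higher, and the number lower was 1 without WT replicate 1, KO replicate 1 or KO replicate 4 and 0 without WT replicate 3. Leaving out any WT library took Gsta2 below the filter. Changes in brackets from here on are fitted log2 fold changes, KO over WT.

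**Figure D1:**
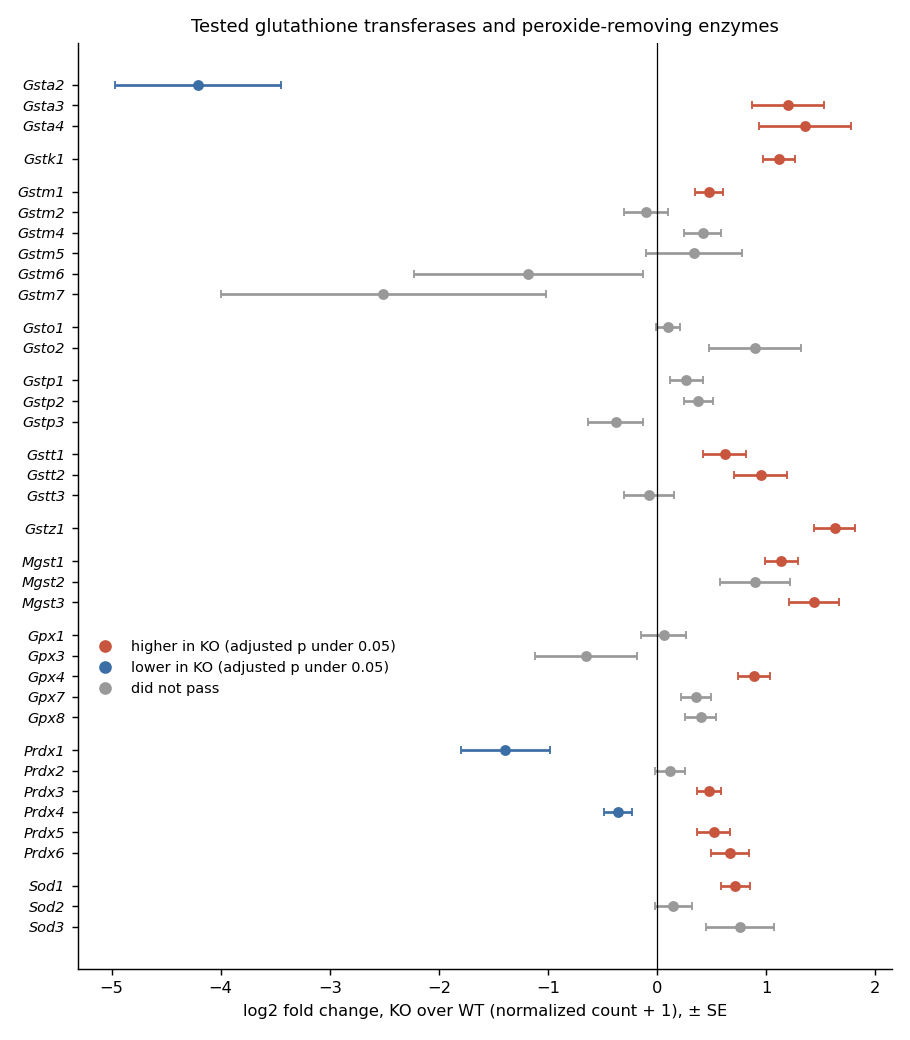
Fitted change in KO relative to WT, as log2(normalized count + 1), of the 36 tested members, grouped by family; points are fitted values from 4 WT and 4 KO libraries and bars are standard errors. Red points passed as higher in KO, blue as lower and grey did not pass; Gstz1 at 1.63 was the highest and Gsta2 at -4.21 the lowest.

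Since members of these families are textbook NRF2 targets, RefSeq promoters (GRCm38.p6, 250 bases before to 50 after the start) were searched on both strands for the core antioxidant response element, TGACNNNGC, whose reverse complement is GCNNNGTCA. The core can contain TGACTCA, the AP-1 motif. A promoter was at hand for 37 of the 42 members. The core occurred in 3 of 11 members higher in KO, in 1 of 3 lower, in 2 of 18 that did not pass and in 0 of 5 not tested, and in 12.4% of 32851 promoters of all genes, or at least 1 promoter of 14.0% of 27025 genes. In the NRF2 list it was present for 12 of 30 genes, and among those lower in KO for 3 of 12. The promoters of the 4 members that passed and hold the core are printed 5′ to 3′ with the core in capitals, to show that it occurs both in Prdx1, which fell, and in 3 genes that rose. Sequence matches are descriptions and not sites of binding.
Prdx1 (chr4:116685349-116685648, plus strand): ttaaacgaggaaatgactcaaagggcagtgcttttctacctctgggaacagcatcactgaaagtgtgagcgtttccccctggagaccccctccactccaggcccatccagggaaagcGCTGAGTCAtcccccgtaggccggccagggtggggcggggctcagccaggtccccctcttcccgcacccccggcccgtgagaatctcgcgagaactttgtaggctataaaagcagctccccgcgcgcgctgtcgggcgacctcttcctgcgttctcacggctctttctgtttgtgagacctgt
Gsta3 (chr1:21240335-21240634, plus strand): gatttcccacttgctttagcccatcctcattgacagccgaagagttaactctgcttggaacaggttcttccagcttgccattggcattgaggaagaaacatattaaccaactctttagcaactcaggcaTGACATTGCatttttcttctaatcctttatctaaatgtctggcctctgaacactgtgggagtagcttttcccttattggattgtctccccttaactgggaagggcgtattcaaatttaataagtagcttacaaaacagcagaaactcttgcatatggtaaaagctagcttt
Mgst1 (chr6:138140277-138140576, plus strand): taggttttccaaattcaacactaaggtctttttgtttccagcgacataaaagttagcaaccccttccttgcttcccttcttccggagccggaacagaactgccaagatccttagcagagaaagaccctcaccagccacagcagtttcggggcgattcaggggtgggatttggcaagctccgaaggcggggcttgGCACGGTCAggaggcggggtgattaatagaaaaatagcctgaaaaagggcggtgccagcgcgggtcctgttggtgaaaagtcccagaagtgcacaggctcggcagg
Sod1 (chr16:90220512-90220811, plus strand): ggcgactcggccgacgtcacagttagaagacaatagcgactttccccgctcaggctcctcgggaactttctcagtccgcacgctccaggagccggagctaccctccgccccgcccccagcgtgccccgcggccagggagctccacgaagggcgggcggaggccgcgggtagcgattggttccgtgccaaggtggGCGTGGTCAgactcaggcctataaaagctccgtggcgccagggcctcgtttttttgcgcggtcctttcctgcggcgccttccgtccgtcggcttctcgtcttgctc

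In Prdx1 the core starts 133 bases before the start site and reads GCTGAGTCA, the reverse complement of a core that holds the AP-1 motif. In Gsta3 it starts 121 bases before, and in Mgst1 and Sod1 56 bases before. The fitted log2 fold changes of these 4 genes were -1.39, 1.20, 1.14 and 0.72, so genes that hold the core differed in direction. Mgst1 has a second RefSeq promoter, without the core.

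The transferase with the largest rise was Gstz1, the zeta class enzyme that isomerises maleylacetoacetate in tyrosine breakdown (ENSMUSG00000021033.11, chromosome 12, 87147165 to 87164723, plus strand, GRCm38). Its normalized counts were 3908, 7279.9, 6002 and 6753 in WT replicates 1 to 4 and 17700, 17438, 19914 and 17217 in KO replicates 1 to 4. Every KO library lay more than 2-fold above every WT library. Gstz1 had a WT mean of 5985 ± 1481 and a KO mean of 18070 ± 1247 (SD, n = 4 each), and the change in log2 units was 1.63 (SE 0.19; limma, adjusted p = 0.000596). On a scale of counts per kilobase of exon, the share of Gstz1 in the summed Gst level was 6.05% ± 1.78 in WT against 14.6% ± 0.939 in KO (SD, n = 4 each). Gstk1, the kappa class transferase of mitochondria and peroxisomes, had 291, 416, 437 and 433 in WT and 824, 737, 981 and 866 in KO. The groups did not overlap, and the change in log2 units was 1.12 (SE 0.15; limma, adjusted p = 0.000957).

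Of the alpha class, whose enzymes conjugate lipid aldehydes such as 4-hydroxynonenal, Gsta3 and Gsta4 rose. Gsta3 had 1245, 1312, 2648 and 878 in WT and 2841, 2439, 4447 and 3403 in KO, and the change in log2 units was 1.20 (SE 0.33; limma, adjusted p = 0.0188). WT replicate 3 lay above KO replicate 2, so the groups overlapped. Without KO replicate 3 Gsta3 missed the threshold (limma adjusted p = 0.0519), also with library weights (0.56, adjusted p = 0.195). Its call was lost as well without WT replicate 4 and KO replicate 3 together. Gsta4, the class member most active on 4-hydroxynonenal, had 153, 169, 229 and 571 in WT and 534, 435, 749 and 867 in KO. WT replicate 4 was above 2 of the KO libraries, and the change in log2 units was 1.36 (SE 0.42; limma, adjusted p = 0.029). Its call was lost in edgeR's test (adjusted p = 0.0562) and without any single library other than WT replicate 4, KO replicate 1 or KO replicate 2 (limma adjusted p from 0.0658 to 0.0753).

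Of the 3 tested theta class members, 2 rose. Gstt2 had 603, 894, 771 and 846 in WT and 1141, 1103, 1738 and 2229 in KO, without overlap, and the change in log2 units was 0.95 (SE 0.24; limma, adjusted p = 0.0135). KO replicates 3 and 4 were the highest. Gstt1 spanned 972 to 1384 across the WT libraries and 1341 to 2359 across the KO libraries, and the change in log2 units was 0.62 (SE 0.20; limma, adjusted p = 0.0361). That call was lost without WT replicate 1, 2 or 3 or KO replicate 3 or 4 (limma adjusted p from 0.0651 to 0.0902). It was lost as well without WT replicate 4 and KO replicate 3 together. Gstt3, their neighbour on chromosome 10, did not pass (-0.07, limma adjusted p = 0.837). Without WT replicate 4 and KO replicate 3 together, Gstt2 had a limma adjusted p of 0.0581.

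Microsomal transferases, membrane enzymes that also reduce lipid hydroperoxides, rose in 2 of 3 members. Mgst1, which sits in the endoplasmic reticulum and outer mitochondrial membrane (ENSMUSG00000008540.11, chromosome 6, 138140316 to 138156755, plus strand, GRCm38), had 5253, 7472, 7425 and 6356 in WT and 12447, 12800.2, 16894 and 16114 in KO. The lowest KO library was above the highest WT library, and the change in log2 units was 1.14 (SE 0.15; limma, adjusted p = 0.001). Mgst3 had 1463, 2862, 1735 and 2356 in WT and 4525, 4649, 7158 and 6100.1 in KO. Its groups did not overlap either, and the change in log2 units was 1.44 (SE 0.23; limma, adjusted p = 0.00215). Mgst2 spanned 117 to 357 across the WT libraries and 289.7 to 428 across the KO libraries and just missed the threshold (0.90, limma adjusted p = 0.0502). WT replicate 2 was its highest WT library, and without it Mgst2 passed (1.21, limma adjusted p = 0.00439). Beside these rises the adipocyte marker sum was also higher in every KO library, and among WT libraries it was 432438.4, 783005.7, 526338 and 640664.3 in replicates 1 to 4. Of the transferases that rose, Gstz1, Mgst1, Mgst3, Gstt2 and Gstm1 were lowest in WT replicate 1 and highest in WT replicate 2, as that sum was. The others departed from it. Gstk1 was highest in WT replicate 3 and Gsta4 and Gstt1 in WT replicate 4, and Gsta3 was lowest in WT replicate 4 and highest in WT replicate 3. The part of adipocyte content in these rises was not tested.

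**Figure D2:**
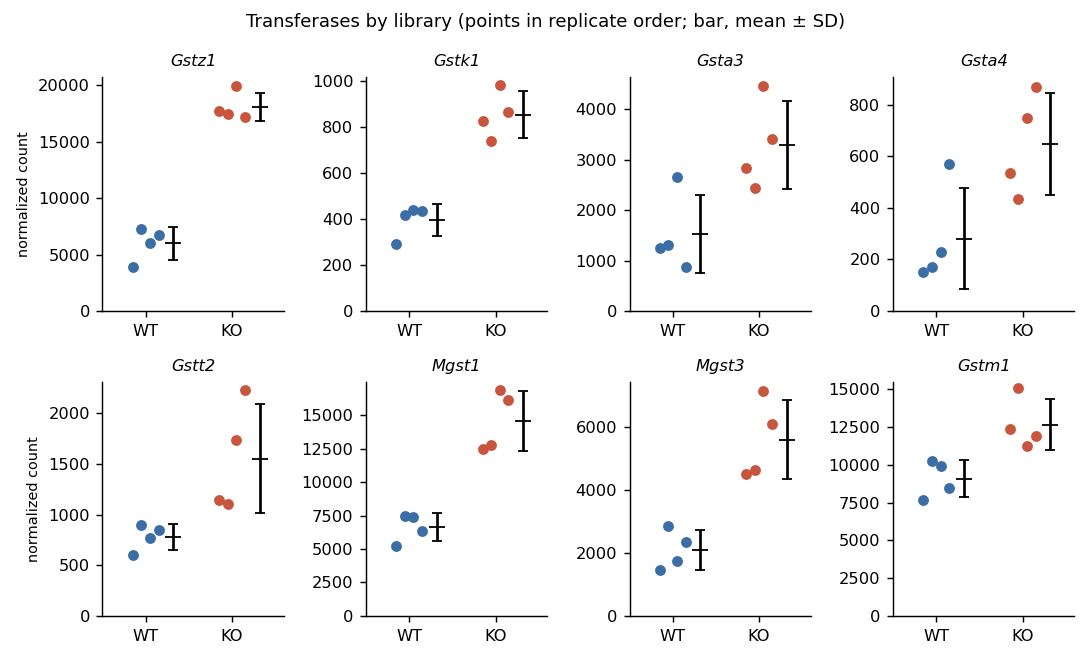
Normalized counts (linear axes from 0) of 8 transferases in each WT (blue) and KO (red) library, with the group mean and SD as a bar beside the points. Gstz1, Gstk1, Gstt2, Mgst1, Mgst3 and Gstm1 show no overlap between groups, while 1 WT library of Gsta3 and 1 of Gsta4 reach into the KO range.

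The mu class genes lie side by side on chromosome 3 (GRCm38) and did not move together. Gstm1, which had the highest mean per length of all transferases in both groups, had 7683, 10230.3, 9945 and 8485 in WT and 12383, 15102, 11241 and 11910.4 in KO. The groups did not overlap, and the change in log2 units was 0.48 (SE 0.13; limma, adjusted p = 0.0196), a call lost without WT replicate 4 and KO replicate 3 together (adjusted p = 0.0542). Gstm2, Gstm4 and Gstm5 did not pass, at -0.10, 0.42 and 0.34 in log2 units, though Gstm4 passed without WT replicate 2 (limma adjusted p = 0.0351). Gstm5 ranged widely within groups, over 352 to 1212 across the WT libraries and 609 to 1689 across the KO libraries.

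Gstm7 and Gstm6 split the WT group instead. Gstm7 (ENSMUSG00000004035.12, chromosome 3, 107926334 to 107931817, minus strand, GRCm38) had 3351, 6976, 5973 and 70.2 in WT replicates 1 to 4 and 1074, 577, 173 and 86.1 in KO replicates 1 to 4. WT replicate 4 held less than any KO library, whereas WT replicates 1 to 3 held more than all of them. Gstm6 split the WT libraries in the same way, with 889, 1650.2, 1612 and 47.8 in WT and 429.8, 299.9, 171 and 198 in KO. Neither passed (Gstm7 -2.51, SE 1.49, limma adjusted p = 0.205; Gstm6 -1.18, SE 1.05, 0.396). Without WT replicate 4, both passed as lower (Gstm7 -4.06, limma adjusted p = 0.00773; Gstm6 -2.37, 0.00264), and DESeq2 called Gstm7 with all libraries (adjusted p = 0.0216). The epididymal gene Adam7, set beside them after its values were seen, had 7805, 19829, 17381 and 0.9 in WT and 41.4, 273, 387 and 0 in KO. It was likewise high in WT replicates 1 to 3 and at the floor in WT replicate 4. Not every tract gene was at the floor there. Of the 14 tested, WT replicate 4 was the lowest WT library for 10, Adam7 included, and the highest for 3. Crisp1 had 34594, 71825, 63747 and 26575 in WT, Spink8 7190, 13558, 13181 and 3938 and Serpina1f 2130, 4499.7, 3329.8 and 7052. The part of tract RNA in the Gstm6 and Gstm7 values was not tested. Read sharing was small for this pair, since 0.532% of the 50-base stretches of Gstm7 transcripts and 5.97% of those of Gstm6 occur in another annotated gene.

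**Figure D3:**
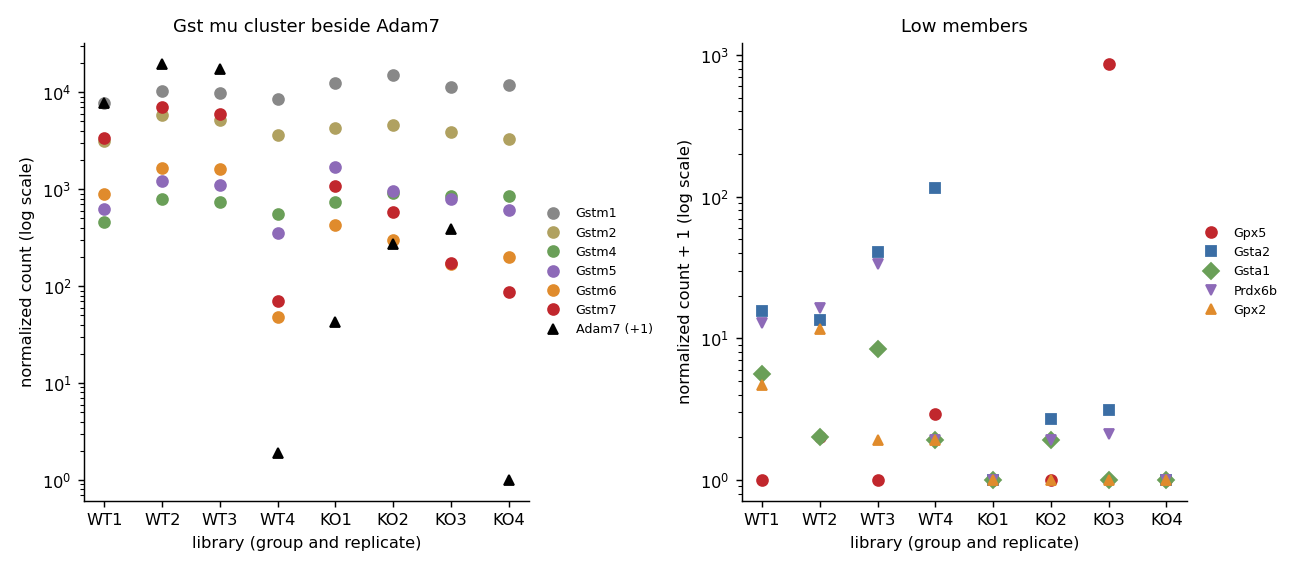
Normalized counts (log axis) in each of the 8 libraries, for the mu class genes and the epididymal gene Adam7 (plus 1) on the left, and for 5 members with low counts (plus 1) on the right. Gstm6, Gstm7 and Adam7 drop in WT replicate 4, and Gpx5 is seen at 868.5 in KO replicate 3 and at 1.9 or less elsewhere.

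Among the other transferase classes no member passed. Gstp1, the pi class enzyme that conjugates many electrophiles, spanned 2757 to 3794 across the WT libraries and 3398 to 4598 across the KO libraries (0.27, limma adjusted p = 0.163). Gstp2 was just over the threshold (0.38, limma adjusted p = 0.0502) and passed without WT replicate 1 (0.0454) or KO replicate 1 (0.0214). Reads of this pair are uncertain, because 33.7% of Gstp1 and 54.3% of Gstp2 50-base stretches are shared with another gene, mainly with each other. Gstp3 had counts of 13.8 to 28.4. Gsto1, an omega class enzyme that reduces dehydroascorbate, had a difference of 0.10 (SE 0.11), and Gsto2 had 0.90 with counts of 11.9 to 63.1, passing without KO replicate 2 (limma adjusted p = 0.0439).

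Several low members were found in 1 group or 1 library. Gsta2, an alpha class gene, had 14.7, 12.5, 39.9 and 113 in WT and 0, 1.7, 2.1 and 0 in KO, and the change in log2 units was -4.21 (SE 0.76; limma, adjusted p = 0.0032). WT replicate 4 held 61.5% of its counts over the 8 libraries. Gsta2 entered the test only because all 4 WT libraries reached a count of 10, so it had to differ, and 49.8% of its 50-base stretches are shared with other genes. The vas deferens gene Akr1b7, set beside it after its values were seen, had 188, 212, 197 and 80636 in WT and 5.7, 0.9, 0 and 0 in KO. Gpx5 encodes the secreted glutathione peroxidase of the epididymis. It had 868.5 in KO replicate 3 (808 reads), 0, 1, 0 and 1.9 in WT and no read in the other KO libraries, which allows up to 3 reads in each. Lcn8, an epididymal lipocalin also chosen after its values were seen, had 108 in the same library and at most 1.9 elsewhere. Lcn9 and Cst11 had 55.9 and 49.4 there and at most 1 elsewhere. Other tract genes differed from this. Lcn5 had 378.4 in KO replicate 3, but also 357.4 in WT replicate 3 and 126 in WT replicate 2. Crisp1, Spink8 and Serpina1f had 37.6, 106 and 86 in KO replicate 3, below every WT library. Adam7 was high in WT replicates 1 to 3, Akr1b7 in WT replicate 4 and Lcn8 in KO replicate 3. Each was picked after its values were seen and does not stand for the tract genes as a set. Of the 14 tract genes tested, WT replicate 4 was the lowest WT library for 10 and the highest for 3. The part of tract tissue in Gsta2 and Gpx5 was not tested.

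The remaining untested members were near the floor. Prdx6b, a gene copy of Prdx6, had 11.9, 15.4, 32.5 and 0.9 in WT and 0, 0.9, 1.1 and 0 in KO. Gsta1 had 4.6, 1, 7.4 and 0.9 in WT and at most 0.9 in KO, with 90.5% of its 50-base stretches shared with other genes. Gpx2, the glutathione peroxidase of the gut lining, had 3.7, 10.6, 0.9 and 0.9 in WT and no read in KO. Gstm3 had 52.9 in WT replicate 3 and 2.4 to 9.6 elsewhere, and Gstt4 ran from 0 to 18.6.

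Of the glutathione peroxidases, Gpx4 rose and the others tested did not pass. Gpx4, the selenoenzyme that reduces lipid hydroperoxides in membranes and blocks ferroptosis (ENSMUSG00000075706.10, chromosome 10, 80047166 to 80056439, plus strand, GRCm38), had 9148, 12308, 10061 and 10846 in WT and 18063, 18392, 25021 and 17437 in KO. The groups did not overlap, and the change in log2 units was 0.89 (SE 0.15; limma, adjusted p = 0.00216). KO replicate 3 was well above the other KO libraries. That library also held the most red cell transcripts, and without it Gpx4 still passed (0.77, limma adjusted p = 0.00441). The transcribed pseudogene Gpx4-ps2 shares 34.7% of the 50-base stretches of Gpx4 transcripts and had a WT mean of 2450 ± 329.2 and a KO mean of 5032 ± 911.7 (SD, n = 4 each), so reads of this pair are uncertain. Both rows were higher in KO. Gpx1, the cytosolic peroxidase, had 26561, 15000.2, 21064 and 17070.1 in WT and 18576, 16394, 25494 and 21539.7 in KO. All KO libraries lay inside the WT range (0.06, SE 0.21, limma adjusted p = 0.846).

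Gpx3, the secreted peroxidase of plasma (ENSMUSG00000018339.11, chromosome 11, 54902453 to 54910377, plus strand, GRCm38), had 23724, 41591, 37664 and 9528 in WT and 12508, 10340, 19757 and 23017 in KO. WT replicates 1 to 3 were higher than every KO library and WT replicate 4 was lower than every KO library, the same split of the WT group as for Gstm7. It did not pass (-0.65, SE 0.47, limma adjusted p = 0.301). Without WT replicate 4 it passed as lower (-1.10, limma adjusted p = 0.0313), as it did with library weights (-1.23, 0.0224). Adam7 split the WT libraries in this way too, whereas Crisp1 and Spink8 stayed above every KO library in WT replicate 4 and Serpina1f was highest there, and the part of tract RNA in the Gpx3 values was not tested. Gpx7 and Gpx8, peroxidases of the endoplasmic reticulum, were 0.36 and 0.40 (limma adjusted p = 0.068 and 0.0509). Gpx8 did not overlap between groups, and passed without KO replicate 1 (limma adjusted p = 0.0447) or KO replicate 2 (0.048). Gpx7 passed without WT replicate 2 (limma adjusted p = 0.0407) or KO replicate 4 (0.042).

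**Figure D4:**
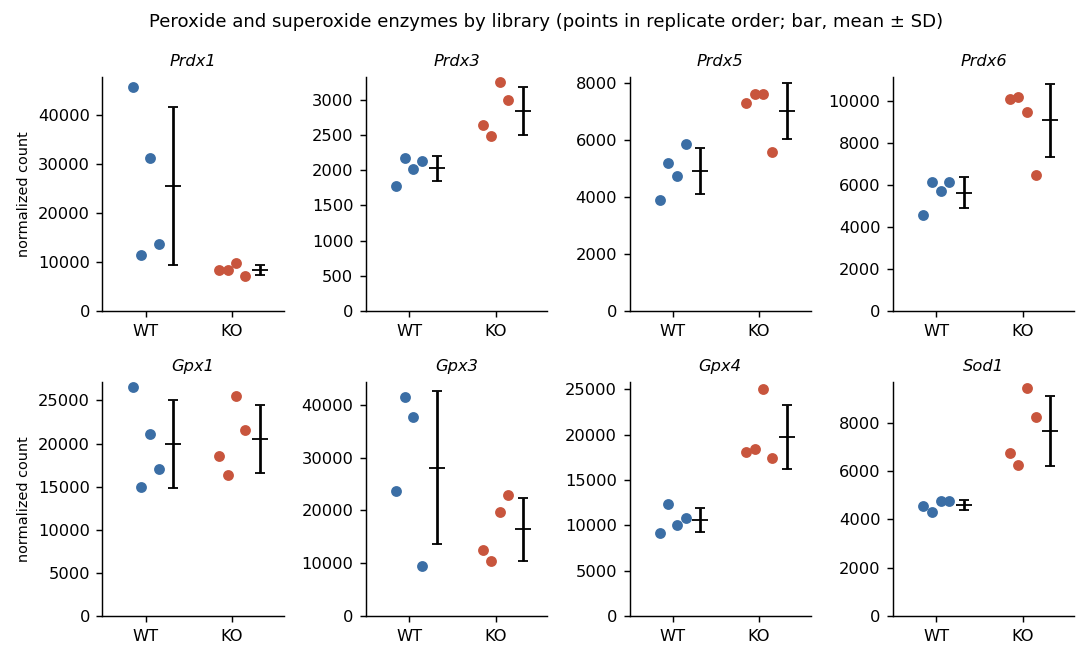
Normalized counts (linear axes from 0) of 8 peroxide and superoxide enzymes in each WT (blue) and KO (red) library, with the group mean and SD as a bar beside the points. Prdx1 spans 11489 to 45727 in WT and lies at 9769 or less in KO; Gpx3 shows 3 high WT libraries and 1 low one.

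Peroxiredoxins went in opposite directions. Prdx1, the abundant cytosolic peroxiredoxin and an NRF2 target with the core element in its promoter (ENSMUSG00000028691.12, chromosome 4, 116685544 to 116700822, plus strand, GRCm38), had 45727, 11489, 31204 and 13730.2 in WT and 8354, 8346, 9769 and 7083 in KO. The WT libraries differed among themselves by a factor of 3.98, all were above the KO libraries, and the KO libraries lay close together. The change in log2 units was -1.39 (SE 0.41; limma, adjusted p = 0.027). That call was lost without WT replicate 3 (limma adjusted p = 0.0728), KO replicate 1 (0.0555), KO replicate 2 (0.0527) or KO replicate 4 (0.0658). Per length, its share of the summed peroxiredoxin level was 52.1% ± 17.5 in WT against 23.9% ± 0.519 in KO (SD, n = 4 each). The macrophage marker sum was 497318.6, 207674.2, 345146.1 and 236198.1 in WT replicates 1 to 4 and 53525.9 to 84106 in KO. Prdx1 and that sum had the same order over the WT libraries, and the part of macrophage content in the Prdx1 difference was not tested.

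The mitochondrial peroxiredoxins rose. Prdx3, found only in mitochondria, spanned 1781 to 2180.1 across the WT libraries and 2486 to 3251 across the KO libraries, without overlap, and the change in log2 units was 0.48 (SE 0.11; limma, adjusted p = 0.00751). Prdx5, shared by mitochondria, peroxisomes and cytosol, had 3884, 5173, 4729.7 and 5845 in WT and 7282, 7623, 7597 and 5579.9 in KO. KO replicate 4 fell inside the WT range, and the change in log2 units was 0.52 (SE 0.15; limma, adjusted p = 0.0237). It was lost without WT replicate 3 or KO replicate 1, 2 or 3 (limma adjusted p from 0.0559 to 0.0616) and with a replicate block (0.0635). Prdx6, which reduces phospholipid hydroperoxides with glutathione, had 4572, 6153, 5712 and 6148 in WT and 10117, 10219, 9502 and 6500.3 in KO. Its groups did not overlap, and the change in log2 units was 0.67 (SE 0.17; limma, adjusted p = 0.0127), and the call was lost without WT replicate 4 and KO replicate 3 together (adjusted p = 0.0504).

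Prdx4, the peroxiredoxin of the endoplasmic reticulum, passed narrowly as lower. It spanned 829 to 1105 across the WT libraries and 614 to 838 across the KO libraries, and the change in log2 units was -0.36 (SE 0.13; limma, adjusted p = 0.0473). The call was lost in edgeR's test (adjusted p = 0.0519), with quantile normalization (0.0771), TMM factors (0.0516), no filter (0.0569) or a replicate block (0.0823), and without any single library other than WT replicate 2 or KO replicate 2 (limma adjusted p from 0.0558 to 0.112). Leaving out WT replicate 4 and KO replicate 3 together also lost the call. Prdx2, abundant in red cells, spanned 3372 to 3939 across the WT libraries and 3455 to 5318 across the KO libraries and did not pass (0.12). Its highest library was KO replicate 3, which also had the most red cell transcripts. The part of red cells in that value was not tested.

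Of the 3 superoxide dismutases Sod1 rose, and the fitted differences lay between 0.15 and 0.76. Sod1, the copper and zinc enzyme of the cytosol, had 4544, 4316, 4766 and 4744 in WT and 6757, 6234, 9431 and 8238 in KO. No KO library reached down to the WT range, and the change in log2 units was 0.72 (SE 0.13; limma, adjusted p = 0.00348). Sod2, the manganese enzyme of mitochondria, did not pass (0.15, SE 0.17), with 2915 to 4112 in WT and 3004 to 4922 in KO. Sod3, the secreted dismutase of the matrix, had 6274, 16497, 9292 and 15002 in WT and 18963, 24572, 16216 and 15911 in KO. WT replicate 2 was above 2 of the KO libraries, and Sod3 did not pass (0.76, SE 0.31, limma adjusted p = 0.0764), but did so without WT replicate 2 (0.96, 0.0364).

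Counts per kilobase of exon allow the members to be ordered by level. In WT the order of mean levels began with Gpx3 (15510), Gpx1 (13830), Prdx1 (8392), Gstm1 (6168) and Gpx4 (6143), and in KO with Gpx1 (14230), Gpx4 (11440), Gpx3 (9049), Gstm1 (8594) and Mgst1 (7235). In both groups the range of each gene in that order overlapped that of the next. Levels of different genes come from the same libraries, so overlap of ranges cannot show that neighbours are equal. Differences between neighbours were not tested. Prdx1 went from rank 3 to rank 10, Mgst3 from 12 to 6, Gstz1 from 15 to 8 and Gstm7 from 9 to 30. The summed level of the Mgst family was 5265 ± 1001 in WT against 12440 ± 2278 in KO (SD, n = 4 each), and that of the Sod family 4659 ± 1317 in WT against 7388 ± 867.3 in KO (SD, n = 4 each), without overlap in either. The Gpx sum was 36310 ± 8278 in WT against 35920 ± 7326 in KO (SD, n = 4 each) and overlapped, while the share of Gpx4 in it was 17.8% ± 5.66 in WT against 32.2% ± 4.56 in KO (SD, n = 4 each). The sum of the 22 Gst genes was 19870 ± 4389 in WT against 24410 ± 610.9 in KO (SD, n = 4 each), with overlap. The Prdx sum was 14920 ± 4782 in WT against 11550 ± 1373 in KO (SD, n = 4 each), also with overlap.

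Genes that feed these enzymes were read from lists chosen with earlier results of these data known. Of 22 genes of glutathione synthesis and recycling, 5 rose and 4 fell, with a median log2 fold change of -0.20. The share called, 40.9%, was near the 41.7% of all genes tested. Slc7a11, the cystine importer that limits glutathione synthesis, fell (-3.30, limma adjusted p = 0.00439), as did the aminopeptidase Anpep (-2.86) and Slc3a2, the partner of Slc7a11 (-0.43). Slc7a11 had 315, 345, 377 and 50.6 in WT and 20.7, 24.8, 30.1 and 12.1 in KO. WT replicate 4 was its lowest WT library, as for Gstm7. Anpep had 22584, 8194, 14751 and 9776 in WT, the order of the macrophage marker sum, and 1464, 2662, 1411 and 1761 in KO. The part of tract RNA and of macrophage content in these differences was not tested. Gclm, the modifier subunit of glutamate-cysteine ligase, fell by 1.00 on the log2 scale, and the catalytic subunit Gclc did not pass (-0.34), but did without WT replicate 4 (-0.52, limma adjusted p = 0.022) or with library weights (-0.45, 0.0333). Glutathione reductase Gsr did not pass either (-0.40), except with library weights among the alternatives run (-0.61, limma adjusted p = 0.0278). Lap3 (0.77), Hagh (0.91) and Glo1 (0.49) rose, the last 2 forming the glyoxalase pathway.

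The thioredoxin and glutaredoxin list of 20 genes had 10 higher members (50%, against 20.2% of all genes) and 5 lower (25%, against 21.5%), with a median of 0.34. The 5 lower genes were thioredoxin Txn1 (-0.79), its reductase Txnrd1 (-1.06), glutaredoxin Glrx (-1.37), Sesn1 (-0.59) and sulfiredoxin Srxn1 (-2.10), which repairs overoxidised peroxiredoxin. Srxn1 had a WT mean of 4777 ± 2533 and a KO mean of 1006 ± 197 (SD, n = 4 each). Higher were Glrx3 (0.69), Msrb2 (0.70), the mitochondrial thioredoxin Txn2 (0.51) and its reductase Txnrd2 (0.33), Glrx2 (0.34) and the iron-sulfur cluster factor Glrx5 (0.92). Msrb3 (0.87), Txnrd3 (0.79), Txnip (0.63) and Sesn3 (0.36) were higher as well. Genes of the cytosol went both ways, since Glrx3 and the member Prdx6 rose, Txn1, Txnrd1, Glrx and Srxn1 fell, and Txnl1 (-0.05) and Prdx2 (0.12) did not pass. Txn1, Txnl1, Glrx2, Glrx5, Msrb3, Txnrd3, Txnip and Sesn3 were named after their values were seen. Txn1 missed the limit without WT replicate 3 (limma adjusted p = 0.0725) or KO replicate 1, 2 or 4 (0.0615, 0.0532 and 0.0622). Glrx2 missed it without WT replicate 2, 3 or 4 or KO replicate 1, 3 or 4 (0.0523 to 0.0733) and with a replicate block (0.0524). Without WT replicate 4 and KO replicate 3 together, Glrx2 had a limma adjusted p of 0.14. The macrophage marker sum was lower and the adipocyte marker sum higher in every KO library beside these genes, and their part was not tested.

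**Figure D5:**
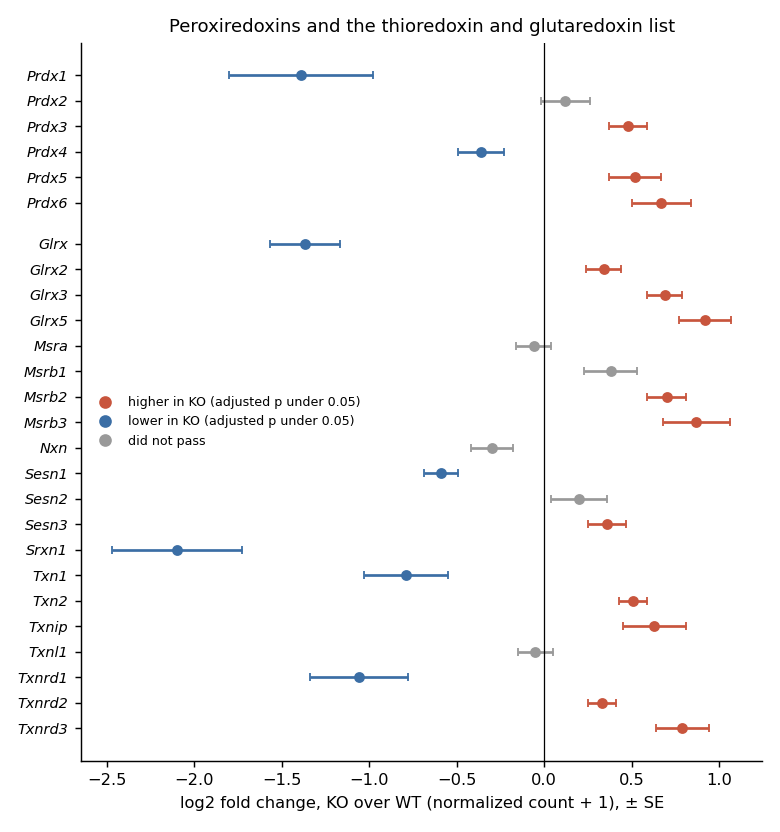
Fitted change in KO relative to WT, as log2(normalized count + 1), of the 6 tested peroxiredoxins (top) and all 20 genes of the thioredoxin and glutaredoxin list (bottom); points are fitted values from 4 WT and 4 KO libraries and bars are standard errors. Red points passed as higher in KO, blue as lower and grey did not pass; in the list, Srxn1 at -2.10 was the lowest and Glrx5 at 0.92 the highest.

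Among 32 tested NRF2 regulators and classic targets, 13 fell (40.6%, against 21.5% of all genes) and 2 rose (6.25%, against 20.2%), with a median of -0.33. Nfe2l2 itself (-0.35, limma adjusted p = 0.0801) and Keap1 (0.07) did not pass, while Nfe2l2 did with library weights (-0.41, limma adjusted p = 0.00951). Heme oxygenase Hmox1 had a WT mean of 7929 ± 3863 and a KO mean of 1674 ± 509.2 (SD, n = 4 each), a log2 fold change of -2.17. Osgin1 (-0.94), Cbr3 (-1.32) and the quinone reductase Nqo1 (-1.46) fell too. Nqo1 had 614.6, 600.1, 632.2 and 142.3 in WT and 165.5, 170.1, 146.2 and 139.5 in KO. WT replicate 4 was its lowest WT library, as for Gstm7, and lay inside the KO range. The part of tract RNA in the Nqo1 values was not tested. Nqo1 missed the limit without any single library other than WT replicate 4 (limma adjusted p from 0.0537 to 0.0835) and with quantile normalization (0.0514). Aox1 (1.09) and the related factor Nfe2l1 (0.46) rose. Hmox1 is also abundant in macrophages, whose marker sum was lower in KO beside these genes, and that part was not tested.

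Genes that make or remove peroxide outside the named families also went both ways, with 9 of 22 tested higher and 9 lower (81.8% called, against 41.7% of all genes). Catalase, Cat, had a WT mean of 14520 ± 1332 and a KO mean of 22470 ± 2163 (SD, n = 4 each) and a log2 fold change of 0.63. Aifm2, which regenerates ubiquinol against lipid peroxidation (1.12), Mpv17 (0.61) and Aox1 were higher. The phagocyte NADPH oxidase subunits Cybb (-2.15) and Cyba (-1.95) were lower, beside the lower macrophage markers. NADPH supply genes rose in 4 and fell in 3 of 17 tested, a share of 41.2% that is near the 41.7% of all genes. H6pd (1.14), Idh2 (0.59) and Nadk (0.44) rose, whereas Mthfd2 (-1.81), Fdxr (-0.36) and Aldh1l2 (-1.13) fell. Fdxr missed the limit without WT replicate 1 or 3 or KO replicate 1 or 2 (limma adjusted p from 0.0573 to 0.0657). It also missed it with a replicate block (0.0674) or quantile normalization (0.0793). Aldh1l2 lost its call without any single library other than KO replicate 2 (0.0667 to 0.0924), in edgeR's test (0.0804), in DESeq2 (0.0559) and with a replicate block (0.0615). Selenoprotein genes rose in 4 and fell in 5 of 22, again near the background at 40.9%, with Selenow (1.01), Txnrd2 and the selenocysteine synthase Sepsecs (0.42; limma adjusted p = 0.064 without WT replicate 4 and KO replicate 3 together) higher and the deiodinase Dio2 (-3.19), Scly (-0.69) and the selenium carrier Selenop (-0.49) lower. Listed genes that do not carry these names, most of them structural relatives, rose in 1 and fell in 4 of 15 tested (33.3%, against 41.7% of all genes). Hpgds, the sigma class transferase that makes prostaglandin D2, was at -2.90, Clic1 at -1.45, Vars at -0.33 and Clic5 at 1.10.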

How the data were processed

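Groups, 4 WT and 4 KO libraries, follow the labels. The deposited values are a signal, the normalized counts of the authors. Per the submitters' processing notes, STAR 2.7.7, DESeq2 and GRCm38.p6 were used, in roles and settings not given there. Counter, strand setting and filters: not given in the sources used here. Within each library, 100% of values above 0 were whole multiples of 1 step (tolerance 0.01 of a read), so whole reads were recovered; no row summed to under 10 reads. Symbols, exon lengths and coordinates came from GENCODE M21 (GRCm38), which matched 24802 identifiers. Replicates of a group were distinct libraries, chi-square over degrees of freedom being at least 26.7. Tests used limma 3.58.1 under R 4.3.3 (variance trend, robust), tested on simulated data, with the settings given in the report; fold changes on the log2(value + 1) scale understate changes of low genes. edgeR 4.0.16 and DESeq2 1.42.0 ran on the recovered reads as alternatives, along with other pseudocounts (0.5 and 5), filters (none, and a minimum of 50), scalings, library weights, a replicate block and libraries left out. Members and lists were chosen with earlier results of these data known. Members were given in every library where a group mean reached 5000, the change was at least 2-fold, or 1 library held most of the counts; Gstt2, Prdx6b, Gsta1 and Gpx2 were given so after their values were seen. In each pathway list up to 3 genes per direction with the smallest adjusted p were named, plus 10 chosen redox genes (Nfe2l2, Keap1, Nqo1, Hmox1, Gclc, Gclm, Gsr, Cat, Txnrd1 and Srxn1). A gene that this rule names is not reported here. The floor of 3 reads covers counting error only. Shared 50-base stretches were counted over GENCODE M21 transcripts, the read length being unknown here. Lists for endothelium, fibroblasts with progenitors, mesothelium and skeletal muscle were also read: of their tested genes 6 of 8 rose, 4 of 9 fell, and 0 of 6 and 0 of 2 passed. Of the red cell list 0 of 7 passed.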

Additional observations from a re-analysis of the deposited data

Results flagged for a closer look

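In 83 groups of 4 libraries examined for a single library far from the rest, 8 stood out. For normally distributed values chance gives about 1 in 20 groups. That rate does not hold for groups with 3 values at 0, as for Gsta1 and Gpx5 in KO, which always stand out. KO replicate 3 held Gpx5 at 868.5 against 0 in the other KO libraries, Gpx4 at 25021.4 against 17436.9 to 18392.4, and Prdx2 at 5317.5 against 3455.1 to 3771.1. KO replicate 4 was low for Gsto1, at 1398.3 against 1788.6 to 1850.9, and for Prdx5, at 5579.9 against 7282 to 7623.4. Gsta1 was 0.9 in KO replicate 2, 1 read, and 0 in the other KO libraries. Gstk1 was low in WT replicate 1, at 290.8 against 416.4 to 437.2, and Gstm3 was high in WT replicate 3, at 52.9 against 3.7 to 9.6.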

How the results depend on the processing

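Of the 16 members called other than Gsta2, 7 kept their call in each of the 19 alternatives (Gpx4, Gstk1, Gstz1, Mgst1, Mgst3, Prdx3 and Sod1). Gsta2 is not counted, since the filter fixed its direction and favoured its call. No called member changed direction. The number higher, 14, was 9 when WT replicate 4 and KO replicate 3 were both left out, and 10 to 16 with single libraries left out. The number lower, 3, was 5 with library weights and 0 to 4 with single libraries left out. In the selenoprotein list 9 genes were called, and 14 with library weights. Called genes over the whole table, 7423, ran from 5481 to 6892 with single libraries left out. With the replicate number as a replicate block, 15 members were higher, 2 lower and 6266 genes were called in all; same-numbered libraries did not deviate together (correlations of -0.143, 0.051, -0.041 and 0.172), so the numbers were not taken to pair them. The 6 members with low counts did not enter the test; a count of 0 there allows up to 3 reads per library.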
